A study of Mus musculus with 14 samples.

Results

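Nphs1, Podxl, Synpo, Wt1, Ptpro, Magi2, Plce1 and Cdkn1c are 8 genes that mark podocytes and their slit diaphragm, and they were followed here through all 4 groups of a study of preterm birth and hyperglycemia in the mouse kidney. They were chosen by their symbols, which were matched to the Ensembl identifiers of the deposited counts, and all 8 were found among the 56980 genes counted. Bulk RNA-Seq was done on 1 whole kidney per mouse in 14 females of CD-1, an outbred stock labelled WT, at 18 weeks of age. Term nondiabetic mice (T-ND, n = 4) were born naturally, stayed with their own dams and received no streptozotocin (STZ), an agent that destroys insulin-producing cells. Term diabetic mice (T-D, n = 4) were born and raised in the same way and received STZ. Preterm nondiabetic mice (PT-ND, n = 3) were delivered by Caesarean section before term and raised by foster mothers that had acepromazine, a sedative, in their water. Preterm diabetic mice (PT-D, n = 3) had the same birth and fostering and received STZ. Preterm birth therefore stands for delivery, fostering and the sedative together. STZ was given again to some of the study's PT-D mice, but to none of its T-D mice, and the labels do not name the libraries concerned. All mice received cationic ferritin before the kidneys were taken, and the pedicle of the kidney used for RNA was clamped before formalin was perfused. Each library is 1 mouse, so the spread within a group is that between mice.

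Podocytes are the epithelial cells that wrap the glomerular capillaries with interlocking foot processes. Neighbouring foot processes are joined by the slit diaphragm, a cell junction built around nephrin that forms the last layer of the glomerular filter. Podocytes are few among the cells of a whole kidney and divide little in the adult, and their loss or injury lets protein pass into the urine.

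All libraries showed kidney RNA, with Miox of the proximal tubule, Umod of the thick ascending limb and Aqp2 of the collecting duct as the most abundant genes of their lists (4527, 1474 and 413 CPM on average, CPM being counts per 1000000 counts of a library). The counts on genes lay between 16697246 and 28673176 per library with a median of 18765582. Levels are given as CPM after TMM normalization, which scales libraries so that most genes do not differ. Over the 14 libraries the smallest raw count of any of the 8 genes was 57 reads, for Plce1, and the largest was 7998 reads, for Podxl. T-D replicate 4 stood apart, with the fewest genes that had a count (19589, against up to 22818 in another library) and with the lowest level of 7 of the 8 genes. Of the 14 libraries, 5 carry the suffix a in their name (PT-D replicate 1, PT-ND replicate 2, T-D replicate 1 and the first and second T-ND replicates), and the labels do not say what it stands for.

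In T-ND, set per kilobase of annotated exons so that genes could be compared, Podxl stood highest, with 25.9 ± 3.93 CPM per kb (SD, n = 4), followed by Cdkn1c with 8.87 ± 1.52. Nphs1 (2.76 ± 1.21), Synpo (2.57 ± 0.650), Ptpro (1.84 ± 0.477) and Wt1 (1.30 ± 0.365) came next, and the libraries of each overlapped those of its neighbour in this order. Magi2 (0.564 ± 0.121) and Plce1 (0.413 ± 0.0858) were lowest, and their libraries overlapped too. Podxl mRNA was thus the most abundant of the 8 per length and Magi2 and Plce1 mRNA the least. The means followed the same order in PT-D, from 50.8 ± 5.86 CPM per kb for Podxl to 0.771 ± 0.0419 for Plce1 (n = 3).

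Promoter windows of RefSeq (assembly GRCm38.p6), which run from 250 bases before to 50 bases after a gene's start, were matched for Nphs1, Ptpro, Magi2 and Plce1, and not for Podxl, Synpo, Wt1 and Cdkn1c. They are shown for Nphs1 and for Ptpro, which had the highest Pearson's r with Nphs1 of the other 7 genes over the libraries, and for the first window of Magi2, which edgeR's test called in no comparison and DESeq2 in that of PT-D with T-ND (adjusted p = 0.0441). The Nphs1 window lies at chr7:30459808-30460107, plus strand, the Ptpro window at chr6:137252049-137252348, plus strand, and that of Magi2 at chr5:19226796-19227095, plus strand. Capitals mark matches, on either strand, to any of 6 motifs: GCGGGGGCG and GNGGGGGNG, 2 G-rich letter strings of the kind zinc finger factors such as WT1 bind, of which the second contains the first; CAGCTG, an E-box; TAATTA, a homeodomain core; TGTTTAC, a forkhead core; and TATAAA, the TATA box.
Nphs1: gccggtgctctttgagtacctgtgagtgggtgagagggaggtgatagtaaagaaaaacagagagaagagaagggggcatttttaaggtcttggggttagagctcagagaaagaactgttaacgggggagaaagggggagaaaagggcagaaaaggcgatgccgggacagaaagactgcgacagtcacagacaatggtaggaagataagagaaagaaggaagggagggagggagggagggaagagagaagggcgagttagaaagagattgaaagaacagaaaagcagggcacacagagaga
Ptpro: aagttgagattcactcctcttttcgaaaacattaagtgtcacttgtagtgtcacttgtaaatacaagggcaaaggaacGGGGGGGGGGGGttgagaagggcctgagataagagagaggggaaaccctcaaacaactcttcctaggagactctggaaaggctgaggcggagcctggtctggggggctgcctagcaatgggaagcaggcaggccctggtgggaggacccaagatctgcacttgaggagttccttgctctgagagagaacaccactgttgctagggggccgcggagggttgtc
Magi2: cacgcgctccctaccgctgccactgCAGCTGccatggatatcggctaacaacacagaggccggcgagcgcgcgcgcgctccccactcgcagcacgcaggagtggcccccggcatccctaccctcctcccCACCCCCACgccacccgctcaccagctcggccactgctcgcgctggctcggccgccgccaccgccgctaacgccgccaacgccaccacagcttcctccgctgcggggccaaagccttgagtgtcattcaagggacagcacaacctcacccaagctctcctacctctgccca
The Nphs1 window held none of the 6 strings, and neither did that of Plce1. In the Ptpro window a run of G held 4 overlapping matches to GNGGGGGNG, a string found in 18.8% of all 32851 windows of the same length. The Magi2 window held CAGCTG once, on the plus strand (16.3% of all windows), and GNGGGGGNG once, on the minus strand. A second Magi2 window held TAATTA once (5.29% of all windows) and GNGGGGGNG once. None of the windows shown held GCGGGGGCG, which occurred in 2.91% of all windows, TGTTTAC (3.65%) or TATAAA (13.6%). These matches describe letters only.

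**Figure D1:**
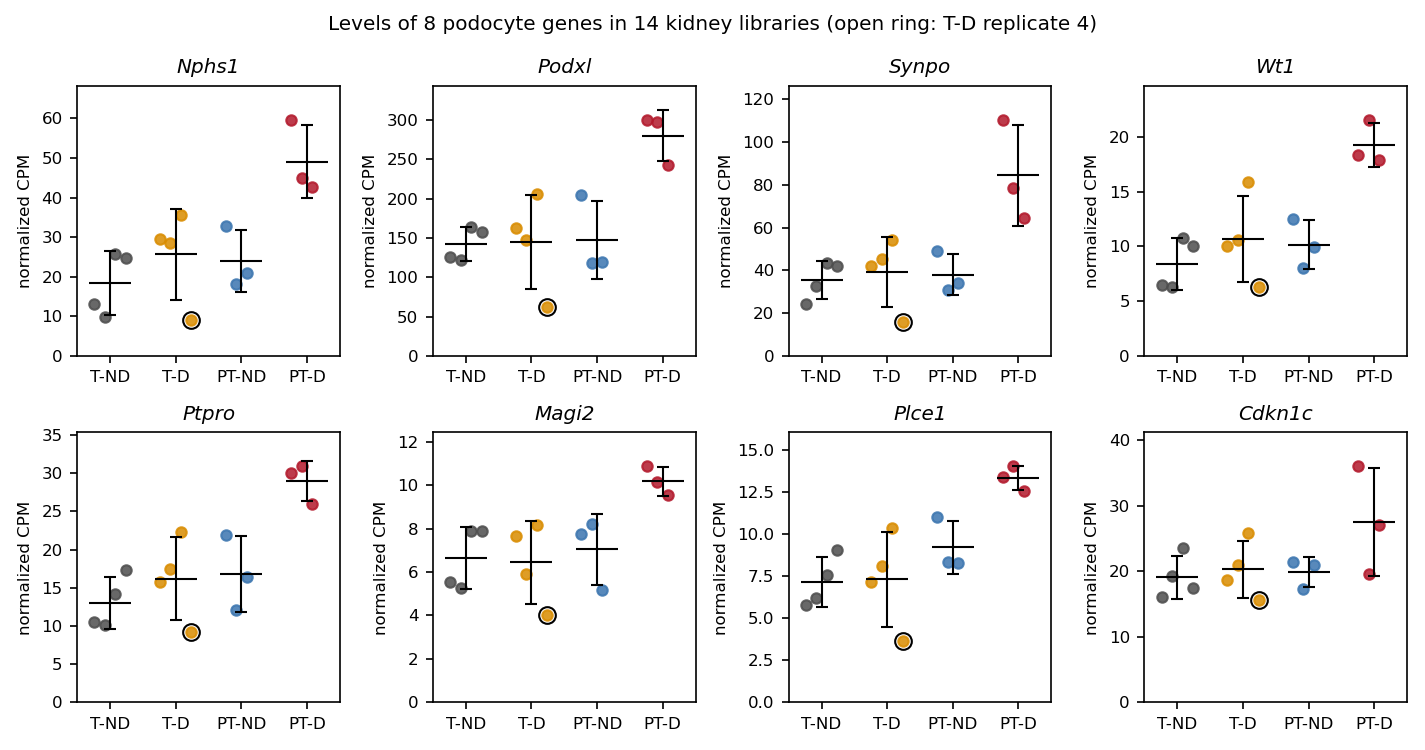
Level of each of the 8 genes in each library, in normalized CPM on a linear axis from 0, with the 4 groups side by side; points are libraries, horizontal bars are group means and error bars 1 SD, and the open ring marks T-D replicate 4. The 3 PT-D libraries lie above all others in 7 genes, while in Cdkn1c they run from 19.6 to 36.1 and overlap the other groups.

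Nphs1 (ENSMUSG00000006649.18, chromosome 7 from 30157740 to 30186675 in GRCm39, plus strand) encodes nephrin, the adhesion protein that spans the slit diaphragm. It had 13.2, 9.80, 25.7 and 24.8 CPM in T-ND replicates 1 to 4 and 29.4, 28.6, 35.7 and 9.16 CPM in T-D replicates 1 to 4. In PT-ND it had 32.9, 18.3 and 20.9 CPM, and in PT-D 59.6, 44.8 and 42.6 CPM. All 3 PT-D libraries lay above all 11 others, and the other 3 groups overlapped. By edgeR's quasi-likelihood test, Nphs1 rose in PT-D over T-ND with a log2 fold change of 1.41 (SE, the standard error, 0.31, adjusted p = 0.0465) and over PT-ND with one of 1.03 (SE 0.23, adjusted p = 0.0176). Against T-D the log2 fold change was 0.93 (95% confidence interval 0.18 to 1.67, adjusted p = 0.145). In whole kidney RNA, fewer cells of a type and less RNA per cell cannot be told apart, and likewise more of either, and this holds for every gene below. The study also measured podocyte density in sections of its females, from nuclei stained for WT-1 in glomeruli outlined by synaptopodin. It reported no difference of PT-D from T-ND or from T-D, and a lower density in PT-D than in PT-ND. How RNA levels relate to that density was not tested.

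Ptpro (ENSMUSG00000030223.15, chromosome 6 from 137229276 to 137440263, plus strand) encodes GLEPP1, a receptor tyrosine phosphatase of the podocyte surface. Its levels were 10.5, 10.1, 14.1 and 17.3 CPM in T-ND, 15.7, 17.4, 22.3 and 9.23 CPM in T-D, 22.0, 12.1 and 16.4 CPM in PT-ND and 30.1, 30.9 and 25.9 CPM in PT-D. Again PT-D stood above every other library. The log2 fold change of PT-D was 1.15 against T-ND (SE 0.20, adjusted p = 0.0279) and 0.78 against PT-ND (SE 0.21, adjusted p = 0.0343). Podxl (ENSMUSG00000025608.10, chromosome 6 from 31496418 to 31540924, minus strand) encodes podocalyxin, the charged sialoprotein that coats foot processes and is also made by endothelial cells. It had 126, 123, 165 and 158 CPM in T-ND, 163, 147, 206 and 62.7 CPM in T-D, 204, 119 and 119 CPM in PT-ND, and 300.4, 297 and 243 CPM in PT-D. The PT-D libraries were above the rest without overlap. PT-D exceeded T-ND by a log2 fold change of 0.97 (SE 0.15, adjusted p = 0.0223) and PT-ND by 0.93 (SE 0.22, adjusted p = 0.0222).

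Synpo (ENSMUSG00000043079.18, chromosome 18 from 60726087 to 60793214, minus strand) encodes synaptopodin, an actin-associated protein of foot processes. Its levels were 24.3, 32.5, 43.6 and 41.9 CPM in T-ND, 42.1, 45.2, 54.1 and 15.8 CPM in T-D, 48.8, 30.97 and 34.3 CPM in PT-ND and 110.4, 78.7 and 64.2 CPM in PT-D. PT-D replicate 1 was the highest library and no PT-D library fell into the range of another group. The log2 fold change was 1.24 against T-ND (SE 0.24, adjusted p = 0.0325) and 1.15 against PT-ND (SE 0.23, adjusted p = 0.0118).

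Magi2 (ENSMUSG00000040003.19, chromosome 5 from 19431741 to 20909790, plus strand), whose protein is a scaffold at the slit diaphragm, had 5.52, 5.28, 7.87 and 7.86 CPM in T-ND and 7.67, 5.90, 8.17 and 4.01 CPM in T-D. It had 7.73, 8.22 and 5.19 CPM in PT-ND and 10.9, 10.2 and 9.53 CPM in PT-D. The PT-D libraries were the 3 highest, and the difference did not pass the test against T-ND (log2 fold change 0.61, interval 0.15 to 1.07, adjusted p = 0.114) or against PT-ND (0.53, interval 0.01 to 1.05, adjusted p = 0.163). Plce1 (ENSMUSG00000024998.18, chromosome 19 from 38469411 to 38773474, plus strand) encodes a phospholipase C that is needed for the glomerulus to mature. It had 5.81, 6.19, 7.56 and 9.09 CPM in T-ND, 7.17, 8.13, 10.4 and 3.63 CPM in T-D, 11.03, 8.39 and 8.27 CPM in PT-ND and 13.4, 14.1 and 12.6 CPM in PT-D. PT-D lay above the other groups without overlap. Plce1 rose in PT-D over T-ND, with a log2 fold change of 0.89 (SE 0.19, adjusted p = 0.044), and against PT-ND the value was 0.53 (SE 0.20, adjusted p = 0.0991).

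Wt1 (ENSMUSG00000016458.16, chromosome 2 from 104956625 to 105003961, plus strand) encodes the zinc finger transcription factor that adult podocytes keep expressing. Its levels were 6.46, 6.28, 10.8 and 10.04 CPM in T-ND, 10.02, 10.6, 15.9 and 6.30 CPM in T-D, 12.5, 8.05 and 9.92 CPM in PT-ND and 18.4, 21.6 and 17.9 CPM in PT-D. No library outside PT-D reached the PT-D range. Wt1 rose in PT-D by a log2 fold change of 1.19 over T-ND (SE 0.22, adjusted p = 0.0302) and of 0.92 over PT-ND (SE 0.20, adjusted p = 0.0171). Cdkn1c (ENSMUSG00000037664.14, chromosome 7 from 143012069 to 143014806, minus strand) encodes p57, an inhibitor of the cell cycle that podocytes hold as they stop dividing. It had 16.1, 19.3, 23.6 and 17.5 CPM in T-ND, 18.8, 21.0, 25.9 and 15.6 CPM in T-D, 21.4, 17.3 and 21.0 CPM in PT-ND and 36.1, 19.6 and 27.1 CPM in PT-D. It was the only one of the 8 in which a PT-D library lay inside the range of every other group. The log2 fold change of PT-D was 0.52 against T-ND (interval 0.05 to 1.00, adjusted p = 0.173) and 0.47 against PT-ND (adjusted p = 0.178).

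Between PT-D and T-ND, which differ in birth and in STZ together, 6 of the 8 genes rose in PT-D, beside 1.61% of the 22310 genes tested that were called higher (adjusted p under 0.05). All 8 had a positive log2 fold change, with a median of 1.06 beside 0.03 over all genes, and Nphs1, Synpo, Wt1 and Ptpro also passed the fold threshold that made a gene a DEG (log2 fold change above 1). In 7 of the 8 every PT-D library was above every T-ND library, beside 12% of all genes. The calls depended on which libraries were in the fit. With T-ND replicate 3 left out 6 of the 8 were called, with T-ND replicate 2, T-ND replicate 4 or PT-D replicate 1 left out 1 was, and with T-ND replicate 1, PT-D replicate 2 or PT-D replicate 3 left out none was, by edgeR's test on fewer libraries. Over these fits the log2 fold change ran from 1.20 to 1.61 for Nphs1, from 0.90 to 1.06 for Podxl and from 1.04 to 1.32 for Ptpro, and from 0.27 to 0.72 for Cdkn1c. DESeq2 called 7 of the 8, all but Cdkn1c, and 12.6% of all genes.

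Between PT-D and PT-ND, which asks for the effect of STZ in preterm mice, Nphs1, Podxl, Synpo, Wt1 and Ptpro rose, 5 of the 8, beside 7.14% of all genes called higher. The median log2 fold change of the 8 was 0.85, beside 0.05 over all genes, and 7 of the 8 did not overlap between the groups, beside 18.7% of all genes. Without PT-ND replicate 1 the count was 6, without PT-D replicate 1, 2 or 3 it was 4, 3 and 4, and without PT-ND replicate 2 or 3 it was 0. This comparison shares its PT-D libraries with the one against T-ND.

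Between PT-D and T-D, which asks for the effect of birth in diabetic mice, 0 of the 8 genes were called by edgeR's test, beside 0.135% of all genes called higher, and 7 had an unadjusted p under 0.05, beside 22.3% of all genes. DESeq2 called 10.2% of all genes and 4 of the 8, namely Podxl (adjusted p = 0.0403), Synpo (0.0284), Wt1 (0.0437) and Ptpro (0.0358). The log2 fold changes ran from 0.44 for Cdkn1c to 1.10 for Synpo (interval 0.38 to 1.83, adjusted p = 0.101), and the PT-D libraries were above all T-D libraries in 7 of the 8, beside 12.4% of all genes. T-D replicate 4 widened the spread of its group. Without it the log2 fold changes were 0.65 for Nphs1, 0.70 for Podxl and 0.84 for Synpo, smaller than with it, and their adjusted p-values were 0.0726, 0.0604 and 0.0639.

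STZ in term mice (T-D against T-ND) gave 0 calls among the 8 by edgeR's test, beside 0.0539% of all genes called higher. None had an unadjusted p under 0.05 and DESeq2 called none. The log2 fold changes lay between −0.05 for Magi2 and 0.48 for Nphs1, whose interval ran from −0.38 to 1.33, and the groups overlapped in all 8, beside 2.9% of all genes in which every T-D library was above every T-ND library. Birth without STZ (PT-ND against T-ND) gave 0 calls too, beside 0.0719% of all genes called higher, with no unadjusted p under 0.05 and none called by DESeq2. The values lay between 0.05 for Podxl and 0.39 for Nphs1, and the groups overlapped in all 8, beside 5.48% of all genes in which PT-ND lay above T-ND. The upper ends of the 95% intervals reached 1.33 in T-D and 1.12 in PT-ND, both for Nphs1, so rises up to that size lie within the intervals. An unadjusted p under 0.05 was reached by 11.8% of all genes in T-D and 10.7% in PT-ND, and DESeq2 called 2.10% and 1.38%.

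The interaction asks whether STZ acted differently in preterm mice than in term mice. It was positive for all 8 genes and called for 0 by edgeR's test, beside 2.82% of all genes called higher. Podxl (0.90, interval 0.02 to 1.79, adjusted p = 0.195) and Synpo (1.00, interval 0.03 to 1.97, adjusted p = 0.188) had an unadjusted p under 0.05, and DESeq2 called none. Of the 43 further podocyte genes described below, edgeR's test called 4 higher (Tjp1, Nr3c1, Efnb1 and Cd2ap), beside the same 2.82% of all genes. A rise with STZ that passed the test in preterm mice and not in term mice was thus not shown to differ between them for any of the 8.

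**Figure D2:**
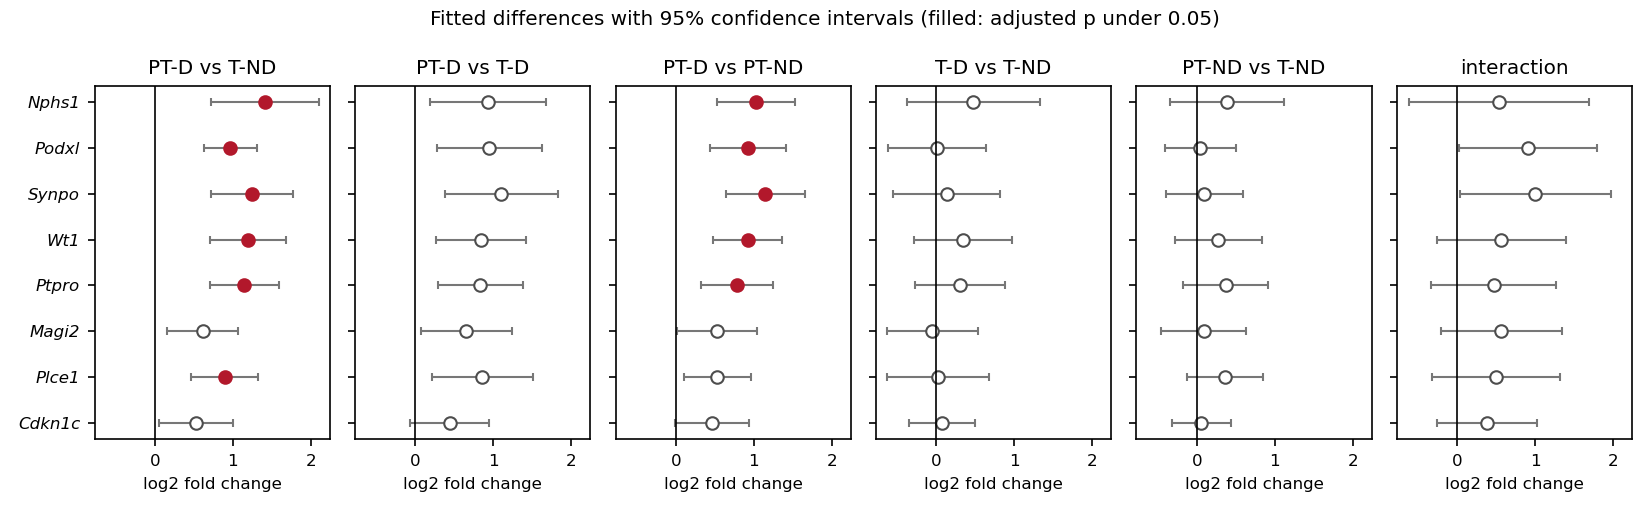
Fitted log2 fold change of each gene for 5 group comparisons and for the interaction, on a linear axis, with 95% confidence intervals; filled points passed an adjusted p under 0.05 in edgeR's test and open points did not. Filled points stand in the comparisons of PT-D with T-ND (6) and with PT-ND (5), and the intervals of T-D and of PT-ND against T-ND span 0 for every gene.

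Further genes of the podocyte were taken from 4 lists with 43 genes in all, which hold no member of the 8. By edgeR's test 10 of the 43 rose in PT-D against T-ND, beside 1.61% of all genes, and none fell. DESeq2 called 21 of the 43, of which 19 were higher, beside 12.6% of all genes called in either direction. Of the log2 fold changes 35 were positive, with a median of 0.65 beside 0.03 over all genes. In PT-D against PT-ND 14 rose by edgeR's test, beside 7.14% of all genes, and 1 fell, beside 5.78%, with a median of 0.54 beside 0.05. DESeq2 called 17 higher there, and 18.9% of all genes in either direction. Against T-D none of the 43 was called by edgeR's test, 23 had an unadjusted p under 0.05, beside 22.3% of all genes, and DESeq2 called 14, beside 10.2%. By edgeR's test none was called in T-D against T-ND or in PT-ND against T-ND. In T-D 2 had an unadjusted p under 0.05, beside 11.8% of all genes, and DESeq2 called 2, beside 2.10%. In PT-ND 5 had such a p, beside 10.7% of all genes, and DESeq2 called 3, beside 1.38%.

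Of the 12 further slit diaphragm genes, 4 rose in PT-D against T-ND and 6 against PT-ND, beside 1.61% and 7.14% of all genes. Tjp1, the gene of the junction protein ZO-1, which many epithelia make, had 40.0 ± 10.4 CPM in T-ND (SD, n = 4), 31.9 ± 4.89 in PT-ND (n = 3) and 73.4 ± 6.27 in PT-D (n = 3), and it rose over both, by 0.87 (adjusted p = 0.046) and 1.20 (adjusted p = 0.0031). Cd2ap, whose protein links nephrin to the actin skeleton, rose by 0.69 over T-ND (adjusted p = 0.0477) and by 1.01 over PT-ND (adjusted p = 0.00576). Fat1, Nck2, Efnb1 and Kirrel1 were further calls of this list, Fat1 in both comparisons and the other three over PT-ND.

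Among the 10 genes of the foot process cytoskeleton 3 rose in PT-D over T-ND, beside 1.61% of all genes. Against PT-ND 3 rose, beside 7.14% of all genes, and 1 fell, beside 5.78%. Inf2, an actin-nucleating formin, had the largest log2 fold change of the 43, from 8.49 ± 3.87 CPM in T-ND and 6.56 ± 3.27 in PT-ND to 30.5 ± 3.21 in PT-D. The fitted log2 fold change was 1.84 over T-ND (SE 0.31, adjusted p = 0.0272) and 2.21 over PT-ND (SE 0.30, adjusted p = 0.00345). Myo1e, an unconventional myosin, rose over both by 0.77 (adjusted p = 0.0401) and 0.88 (adjusted p = 0.0103), and Nes, the intermediate filament nestin, over T-ND by 1.03 (adjusted p = 0.0302). Pdpn, the gene of podoplanin, rose over PT-ND by 1.00 (adjusted p = 0.0106). Arhgap24, a regulator of Rac signalling, was the 1 gene that fell, from 149 ± 1.68 CPM in PT-ND to 87.2 ± 26.9 in PT-D (log2 fold change −0.78, adjusted p = 0.0361).

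The 14 genes of podocyte signals and of the basement membrane held 3 calls over T-ND and 4 over PT-ND, all higher, beside 1.61% and 7.14% of all genes. Itga3, the integrin chain by which podocytes grip laminin, rose over both, by 1.07 (adjusted p = 0.0302) and 1.23 (adjusted p = 0.00344). Sema3g, a secreted semaphorin, rose by 1.19 over T-ND (adjusted p = 0.0304), and so did Pla2r1, the phospholipase A2 receptor, by 1.05 (adjusted p = 0.0425). The laminin chain Lama5 and the proteoglycan Agrn rose over PT-ND, by 1.27 (adjusted p = 0.00892) and 1.11 (adjusted p = 0.0052), as did the collagen IV chain Col4a5 by 0.64 (adjusted p = 0.0326). Of the 7 podocyte transcription factors none was called over T-ND by edgeR's test, with a median of 0.19. DESeq2 called none of them higher over T-ND and called Tcf21 lower, as given at the end. Nr3c1, the glucocorticoid receptor, was the 1 called over PT-ND by edgeR's test (0.73, adjusted p = 0.0131), beside 7.14% of all genes called higher.

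Genes of other kidney cells moved with the 8 in part. The summed CPM of the 8 genes ran from 208 to 298 in T-ND, 126 to 379 in T-D, 222 to 361 in PT-ND and 443 to 579 in PT-D. Over 9 genes of glomerular and vascular endothelium, with Plat the most abundant, the sum ran from 484 to 549 in T-ND and from 686 to 1047 in PT-D, and 1 of the 9 rose over T-ND and 4 over PT-ND, where 1.61% and 7.14% of all genes did, as for the lists that follow. Over 7 genes of mesangium and pericytes, with Ren1 the most abundant, it ran from 176 to 247 and from 296 to 365, with 1 and 3 genes called higher. Leukocyte genes, with Lyz2 the most abundant, summed to 41.6 to 102 CPM in T-ND and 91.1 to 139.7 in PT-D, with 1 of 7 called over T-ND and 2 over PT-ND. Lyz2 itself averaged 44.2 CPM in T-ND and 36.4 in PT-D, and S100a8 12.3 ± 4.73 and 43.3 ± 34.4 (SD). Of the 7, 6 had a positive log2 fold change over T-ND. The sums of 8 proximal tubule genes, led by Miox, ran from 9444 to 13732 CPM in T-ND and 9909 to 13290.2 in PT-D, with none called in either comparison. Thick ascending limb and distal tubule genes, led by Umod, ran from 3602 to 4275 CPM in T-ND and from 1790.0 to 4092 in PT-D, and Umod fell over T-ND (log2 fold change −1.39, adjusted p = 0.0325). Collecting duct genes, led by Aqp2, ran from 629 to 1059.6 and from 338 to 824, with none called over T-ND and Slc4a1 lower over PT-ND. Parietal epithelium, led by Pax2 (53.2 to 64.4 and 57.2 to 73.0 CPM), had no call, and neither had red blood cells, led by Hba-a1 (22.4 to 519.6 and 110.6 to 266 CPM). All calls in these lists are by edgeR's test. DESeq2 called 1 of the 4 parietal genes higher over T-ND and 1 over PT-ND, beside 12.6% and 18.9% of all genes called. The endothelial and mesangial sums of PT-D thus lay above those of T-ND beside those of the podocyte genes, and the tubule sums overlapped. Plat had 111 CPM on average in T-ND and 263 in PT-D, and Ren1 had 95.4 and 159. Emcn (66.7 and 55.8), Tek (25.9 and 20.2) and Des (14.8 and 13.7) were lower in PT-D. The log2 fold change over T-ND was positive for 7 of the 9 endothelial and 6 of the 7 mesangial genes, beside 51.9% of all genes. The part of the make-up of the kidney in these results was not tested.

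**Figure D3:**
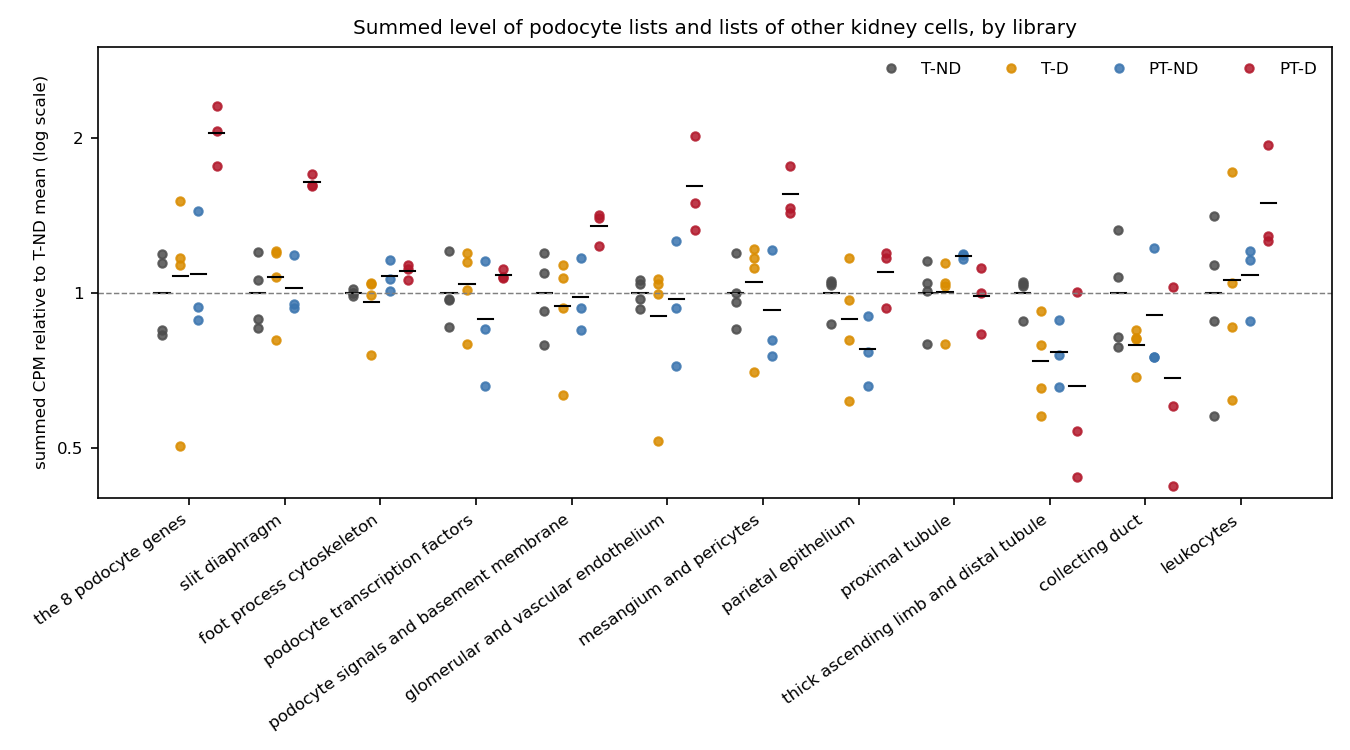
Summed normalized CPM of each gene list except red blood cells in each library, relative to the mean of the T-ND libraries, on a log axis; points are libraries, bars are group means, and the dashed line is the T-ND mean. PT-D libraries stand at 1.76 to 2.31 times the T-ND mean for the 8 genes, and proximal tubule sums stay close to it.

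Reads on overlapping genes bear on Cdkn1c and Nphs1. The library protocol did not keep strand, and the authors' unstranded counts leave out reads on exons that 2 genes share. Cdkn1c shares exonic bases with Gm44732, a long noncoding RNA on the other strand, and 57.1% to 64.7% of the reads on its exons were left out of the unstranded count for this reason. For Nphs1, which shares bases with Nphs1os and Rps12-ps4, 17.9% to 23.8% were left out, and for the other 6 genes at most 1.68%. Adding the 2 strand columns of the deposited counts keeps those reads, without telling the gene from its antisense partner. On that scale Cdkn1c had 36.7, 43.7, 52.4 and 44.4 CPM in T-ND and 75.7, 48.1 and 63.4 CPM in PT-D, still with overlap, and a log2 fold change of 0.48 (adjusted p = 0.134). Nphs1 had 14.9, 11.4, 29.7 and 28.3 CPM in T-ND and 65.4, 52.5 and 50.2 CPM in PT-D (log2 fold change 1.40, adjusted p = 0.048). Over the 14 libraries Cdkn1c had a mean of 22.8 CPM per kb on that scale in place of 9.95, second to Podxl on both.

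Within the libraries that carry the suffix a and within the rest, PT-D was higher in the mean for each of the 8 genes in all 3 of its comparisons, by unequal amounts. Against T-ND the log2 ratio of means for Nphs1 was 2.37 among libraries with the suffix and 0.79 among the others, and for Synpo it was 1.96 and 0.74. For Wt1 the values were 1.53 and 0.92, and for Cdkn1c 1.03 and 0.18. The 2 T-ND libraries with the suffix had 9.80 to 13.2 CPM of Nphs1 and the 2 without it 24.8 to 25.7 CPM, so the difference from PT-D was larger where the suffix was present. Only 1 PT-D library carries it. Among the 9 libraries without the suffix none of the 8 genes was called against any group by edgeR's test, with adjusted p-values from 0.0695 for Nphs1 to 0.737 for Cdkn1c against T-ND. With the suffix as a covariate on all libraries of both groups, 6 were called against T-ND.

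Libraries also differed in the level of long against short transcripts. Over 12164 genes with a mean of at least 50 counts, the median log2 deviation from the mean of all libraries for genes with a longest transcript of at least 5918 bases, minus that for genes with one of at most 2951 bases, was 0.33, 0.46 and 0.60 in the 3 PT-D libraries and −0.13 to 0.17 in T-ND. It was 0.08, −0.21 and −0.46 in PT-ND, −0.14 to 0.06 in T-D replicates 1 to 3, and −0.75 in T-D replicate 4, which also had the lowest podocyte levels. PT-D libraries thus had relatively more RNA of long genes. The longest transcripts of Plce1 (10154 bases), Synpo (7269) and Magi2 (7040) pass the limit for long genes, those of Podxl (5392), Ptpro (5327), Nphs1 (4635) and Wt1 (3343) lie between the limits, and that of Cdkn1c (2002) is under the limit for short ones. In a fit with offsets for length and GC content, Nphs1 (adjusted p = 0.0455), Podxl (0.0278), Wt1 (0.0285) and Ptpro (0.0315) were called in PT-D over T-ND and Synpo (0.0514) and Plce1 (0.0827) were not. Over PT-ND, Nphs1, Podxl, Synpo and Wt1 were called and Ptpro was not (0.0676). In that fit the log2 fold change of Wt1 was 1.24 over T-ND and that of Plce1 0.64, in place of 1.19 and 0.89.

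**Figure D4:**
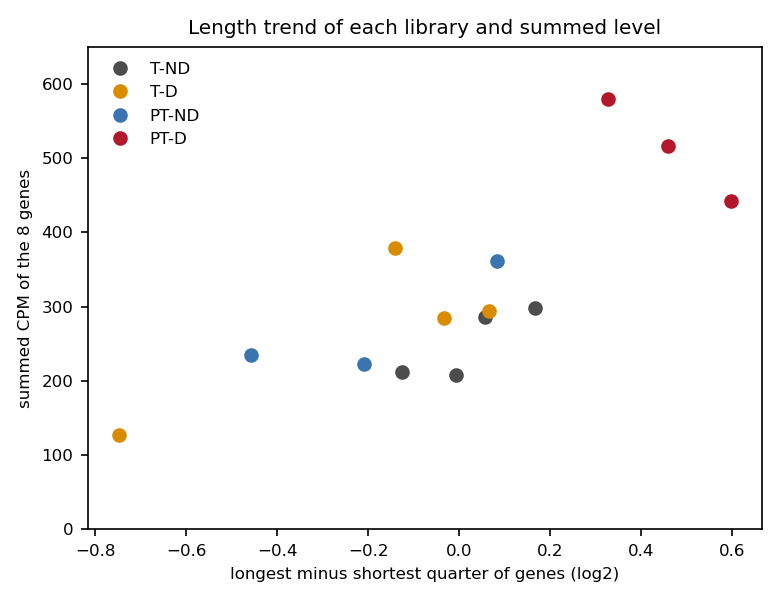
Summed normalized CPM of the 8 genes in each library (vertical axis, from 0) against its median log2 deviation of long genes minus that of short genes (horizontal axis). The 3 PT-D libraries lie at 0.33 to 0.60 and 443 to 579 CPM, at the upper right, and T-D replicate 4 lies at −0.75 and 126 CPM, at the lower left.

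The 8 genes rose and fell together between mice. Over the 14 libraries the log2 level of Nphs1 correlated with that of Ptpro (Pearson's r = 0.96, Spearman's rho = 0.95), Wt1 (0.95 and 0.96), Synpo (0.93 and 0.97), Podxl (0.91 and 0.94), Plce1 (0.91 and 0.85), Magi2 (0.87 and 0.79) and Cdkn1c (0.75 and 0.76). Of 7 permutation tests of r, Cdkn1c had the largest p (0.00189 before and after Benjamini-Hochberg adjustment) and Magi2 the next (6e-05, adjusted 7e-05). For Synpo, Wt1 and Ptpro the p was 1e-05, the smallest that 100000 permutations can give. The p-values of rho ran up to 0.00204. Libraries were permuted across all groups, so differences between groups enter these p-values. Without T-D replicate 4 and T-ND replicate 2, which lay farthest from the median of Nphs1, r was 0.78 (Magi2) to 0.98 (Synpo), and with group means subtracted it was 0.60 (Cdkn1c) to 0.92 (Ptpro). Within the 8 term libraries alone r ran from 0.69 for Cdkn1c to 0.95 for Ptpro. Such values of r with Nphs1 were not rare. Among the 12148 other genes ranked below, Lamb2 (r = 0.88) stood at rank 141 and Lmx1b (r = 0.75) at rank 906. The libraries share their depth, normalization and length trend across genes, and the part of these was not tested.

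**Figure D5:**
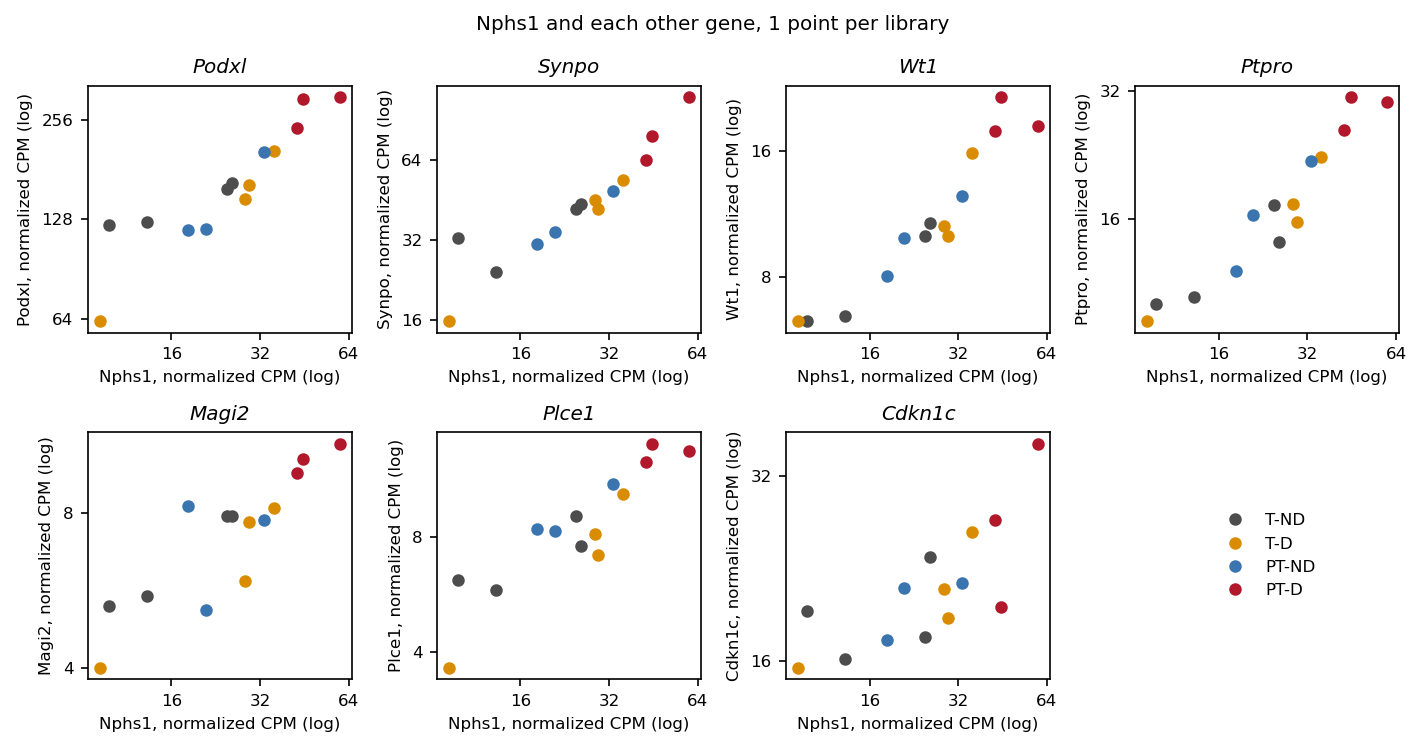
Normalized CPM of Nphs1 (horizontal axis, log scale) against those of each other gene (vertical axis, log scale), 1 point per library, coloured by group. The PT-D libraries lie at the upper right in each panel but that of Cdkn1c, and r is highest for Ptpro (0.96).

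Ranked among 12148 other genes whose normalized counts averaged 50 or more, those most like Nphs1 by Pearson's r over the 14 libraries were Srgap1 (0.97), Fam193b (0.96), Hspg2 (0.96), Col27a1 (0.96) and Shank3 (0.95). Srgap1, a GTPase-activating protein of Slit and Robo signalling, had 3.67 ± 1.73 CPM in T-ND, 4.96 ± 2.85 in T-D, 4.41 ± 1.56 in PT-ND and 13.997 ± 3.55 in PT-D. Hspg2, the gene of the proteoglycan perlecan, had 26.6 ± 9.92, 32.7 ± 14.3, 30.98 ± 6.07 and 60.0 ± 8.25 CPM. None of the 5 is in the podocyte lists, and their longest transcripts have from 7365 bases (Shank3) to 14502 bases (Hspg2). Of the further podocyte genes Sema3g ranked highest, at 33 (r = 0.92), followed by Lama5 at 36. Arhgdia, Foxc1, Clic3, Tcf21, Nck1, Npnt and Arhgap24 had a negative r with Nphs1, from −0.03 for Arhgdia to −0.53 for Arhgap24.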

How the data were processed

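Kidney RNA of 14 female mice was sequenced with un-stranded, poly-A selected libraries. The authors trimmed adapters, dropped reads of low quality, aligned the rest to GRCm39 with STAR and deposited its raw read counts for each gene, in 1 unstranded and 2 stranded columns. The unstranded counts were used. The authors named GENCODE mouse release 36. Symbols, positions and exon lengths came from release 39, in which 56236 of the 56980 identifiers matched without their version.

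Only genes with more than 10 counts in all were tested. Every comparison of 2 groups was fitted on the libraries of these groups with edgeR 4.0.16 (R 4.3.3; TMM, quasi-likelihood test, two-sided, Benjamini-Hochberg over all genes tested), and the interaction on all 14. A gene was called at an adjusted p under 0.05, and was a DEG if its log2 fold change was also above 1 or below −1. Counts on genes lay between 16697246 and 28673176 per library, and reads assigned to no gene or to several were left out. No p-value of these gene tests was adjusted over a list, and those of the correlations with Nphs1 were adjusted over their 7 pairs.

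Alternatives were DESeq2 1.42.0, RLE factors, other filters, a joint fit, the library-name suffix, a replicate block, the sum of strand columns, the fold rule and each library left out. The fits on libraries without the suffix and with length and GC offsets (99.27% of genes had both values) were added after seeing the data. The edgeR fits were tested on simulated data. Of 100 genes changed by a log2 fold change of 1, 28% were recovered between PT-D and T-ND. The other pairs recovered 46% to 54%, and the interaction 15%. At a log2 fold change of 2 the pairs recovered 91% to 98% and the interaction 74%. Real differences of about 1 could thus be missed, most of all in the interaction. Named genes are the 8, up to 8 further podocyte genes called per comparison by adjusted p (ties kept), the most abundant gene of each other list and the 5 most like Nphs1, and some genes that this rule names are not reported here. Kirrel1, Col4a5, Arhgap24, Arhgdia, Foxc1, Clic3, Nck1, Lmx1b, Lamb2, Emcn, Tek, Des, S100a8, Slc4a1, Tcf21 and Npnt were named after their values were seen. The 8 genes and all lists were chosen with earlier results of these data known.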

Additional observations from a re-analysis of the deposited data

Results flagged for a closer look

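Preterm and term mice differed in their response to STZ, by the interaction term of edgeR's quasi-likelihood test on all 14 libraries, for 4 of the 43 further podocyte genes and for none of the 8, beside 2.82% of all genes called higher. For Tjp1 the interaction was 1.35 on the log2 scale (adjusted p = 0.0273), with a log2 fold change of 1.20 in preterm mice and −0.16 in term mice. For Cd2ap it was 0.94 (adjusted p = 0.0358), with 1.01 and 0.05. For Efnb1, which encodes ephrin-B1, it was 1.03 (adjusted p = 0.0351), with 0.66 and −0.38, and for Nr3c1 it was 0.90 (adjusted p = 0.0278), with 0.73 and −0.19. When each of the 14 libraries was left out in turn, Tjp1 and Nr3c1 were called in 10 fits, Efnb1 in 7 and Cd2ap in 6, and the highest adjusted p-values were 0.0801, 0.0811, 0.0979 and 0.106. With offsets for length and GC content Tjp1 (0.0403) and Efnb1 (0.018) were called, and Cd2ap (0.0829) and Nr3c1 (0.0766) were not. Among the 8 genes, no library of T-ND or of T-D stood out from its group of 4 by Dixon's criterion, which chance alone passes in about 1 of 20 groups.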

How the results depend on the processing

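Of the 8 genes in PT-D against T-ND, 6 were called in the reported fit, 2 in the joint fit of all libraries, 0 with the replicate block, 0 with length and GC offsets and the replicate block, 0 on libraries without the suffix a, and 0 to 6 with single libraries left out. Against PT-ND the reported 5 became 1 in the joint fit, 0 on libraries without the suffix, 2 with the fold rule and 0 to 6 with a library left out, and against T-D the reported 0 became 4 with DESeq2 and 5 with no filter. DESeq2 called 10.2% of all genes against T-D. The share of all genes called with no filter is not given, so counts under that setting have no background. The further podocyte genes, reported as 10, 0, 0, 15, 0 and 4 calls, moved as follows. Against T-ND PT-D had 21 (DESeq2, beside 12.6% of all genes), 16 (no filter), 6 (joint fit), 3 (replicate block), 1 (offsets and block), 5 (fold rule) and 0 to 19 (a library left out). Against T-D it had 14 with DESeq2 and with no filter, 5 in the joint fit, 1 with the block with and without offsets, and 0 to 4. Against PT-ND it had 7 with the fold rule and 9 to 19. T-D and PT-ND against T-ND had 2 and 3 with DESeq2, beside 2.10% and 1.38% of all genes, and 0 to 2 and 0 to 1 with a library left out. The interaction had 11 (DESeq2), 8 (filterByExpr), 7 (no filter), 2 (block), 1 (offsets and block), 2 (fold rule) and 0 to 6. Libraries with the same number were not alike (correlations of −0.28 to 0.30, median −0.11, against a median of 0.014 for other pairs), so a call lost under the replicate block is not read as a weaker effect.

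Signs turned for values near 0 where nothing was called. In T-D against T-ND these were Podxl (−0.0074 with the suffix as covariate, −0.091 with the replicate block, −0.036 with offsets and block, −0.22 to 0.27 with a library left out), Synpo (−0.066 to 0.40), Magi2 (0.0065 with offsets, −0.19 to 0.13), Plce1 (−0.028 with the suffix, −0.033 with the replicate block, −0.20 to 0.25) and Cdkn1c (−0.057 with offsets, −0.069 with offsets and block, −0.072 to 0.21). In PT-ND against T-ND they were Podxl (−0.022 with the suffix, −0.29 to 0.18), Synpo (−0.15 to 0.22), Magi2 (−0.037 to 0.27) and Cdkn1c (−0.12 with offsets, −0.19 with offsets and block, −0.021 to 0.16). In the comparisons of PT-D no gene of the 8 changed direction. The cause of these changes was not tested.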

Other observations

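Tcf21, a transcription factor of podocytes and of stromal cells, went a different way from the 8 genes, and it was chosen after its values were seen. It had 13.3 ± 2.797 CPM in T-ND (SD, n = 4), 6.22 ± 2.05 in T-D (n = 4), 6.36 ± 1.41 in PT-ND (n = 3) and 6.81 ± 1.88 in PT-D (n = 3), so that all 3 other groups lay below T-ND without overlap. The log2 fold changes against T-ND were −1.11, −1.06 and −0.97, with adjusted p-values of 0.159, 0.175 and 0.063 from edgeR and of 0.012, 0.00509 and 0.00575 from DESeq2. The 3 comparisons share the T-ND libraries.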
